A study of Rattus norvegicus with 20 samples.

Results

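Mettl21c, Adhfe1, Apobec2 and Ppp1r1a are 4 genes of skeletal muscle that were selected on their soleus values in an earlier analysis of the same libraries, as genes with less RNA in ischemic than in sham soleus. They are 4 of the 21926 gene entries of the expression table, and all 4 were among the 11693 genes with at least 1 FPKM (fragments per kilobase of transcript, scaled to sequencing depth) in at least 5 libraries. The members were thus chosen by the difference of ischemia from sham in soleus, so that difference is described here with no test. The gastrocnemius libraries did not enter that choice, and ischemia against sham was tested there. The mean level of both soleus groups against gastrocnemius was tested as well. It uses the soleus libraries of the choice, though not their difference. Where a soleus library stands apart, this test is thus not fully independent of the choice.

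The 4 proteins act in different pathways. Mettl21c encodes a protein lysine methyltransferase of the METTL21 group, whose relatives modify chaperones and translation elongation factors, and in mouse it has been described in slow fibres. Adhfe1 encodes a mitochondrial hydroxyacid-oxoacid transhydrogenase, which oxidises 4-hydroxybutyrate while it reduces 2-oxoglutarate to D-2-hydroxyglutarate. Apobec2 encodes a member of the cytidine deaminase family of skeletal and heart muscle, and mice that lack it have a shift towards slow fibres. Ppp1r1a encodes inhibitor-1, which blocks protein phosphatase 1 once protein kinase A has phosphorylated it and is switched off by calcineurin. Protein phosphatase 1 acts against phosphorylase kinase, so inhibitor-1 sits between adrenergic signals and glycogen breakdown.

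Poly(A) RNA was sequenced from skeletal muscle of Sprague Dawley rats. Gastrocnemius and soleus were each sampled after a sham operation and after hindlimb ischemia, in 4 groups of 5 libraries, with ischemia made by an endovascular catheter occlusion of the ilio-femoral vessels. Fast fibres prevail in the gastrocnemius and slow fibres in the soleus. The sources used here do not give age, sex or the time after the operation, and nothing there says that libraries of a group come from separate rats, so the p-values measure only the spread between these libraries. Whether gastrocnemius and soleus libraries of the same number come from the same rat is not given either. The main model treats them as separate. Each library held 53.6 to 85.4 M counts. Sham soleus library 4 stood apart, with 8048 genes at 1 FPKM or more where the remaining sham soleus libraries had 10644 to 10876, and the soleus values of the 4 genes are given with and without it. Levels are in FPKM where genes are compared. Group ranges that do not overlap are given as description. The share of all tested genes with such separation was counted only for ischemic below sham libraries on the CPM scale. CPM are the deposited counts relative to the library total after scaling with TMM factors. Tests used the counts themselves, with library totals scaled by these factors, in an edgeR quasi-likelihood model of all 20 libraries. Log2 differences carry their standard error (SE).

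Mettl21c (ENSRNOG00000011591, chromosome 9, 50750971 to 50762082, minus strand) was a soleus gene in these libraries. Sham soleus libraries 1 to 5 had 121, 203, 292, 84.6 and 179.6 FPKM, and ischemic soleus libraries 1 to 5 had 52.3, 78.3, 106.9, 62.9 and 73.9. The ischemic libraries were lower, and the FPKM ranges overlapped only because sham library 4 lay below ischemic library 3. The mean went from 176 ± 79.9 to 74.9 ± 20.6 FPKM (SD, n = 5 each), 2.35-fold lower in ischemia, and from 199 ± 70.8 without sham library 4, 2.66-fold lower. In gastrocnemius the sham libraries had 14.1, 20.4, 28.0, 8.17 and 14.2 FPKM and the ischemic ones 7.46, 30.3, 14.8, 12.3 and 18.0. These ranges overlapped almost wholly, and every soleus library of either group was above every gastrocnemius library. By mean FPKM sham soleus was 10.4-fold above sham gastrocnemius, or 11.7-fold without sham soleus library 4. Ischemic soleus was 4.52-fold above ischemic gastrocnemius. The order of the groups was thus sham soleus, ischemic soleus, and then both gastrocnemius groups, whose means of 17.0 ± 7.53 and 16.6 ± 8.59 did not differ beyond their spread.

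Adhfe1 (ENSRNOG00000007069, chromosome 5, 9403196 to 9429859, minus strand) had the lowest levels of the 4 genes in both soleus groups. Sham soleus libraries 1 to 5 had 9.82, 8.40, 9.73, 7.00 and 8.60 FPKM, and the ischemic ones 4.80, 4.81, 4.17, 3.16 and 5.14. All 5 ischemic libraries lay below all 5 sham libraries. The mean went from 8.71 ± 1.15 to 4.42 ± 0.785 FPKM (SD, n = 5 each), 1.97-fold lower, and from 9.14 ± 0.741 without sham library 4, 2.07-fold lower. Sham gastrocnemius was even, with 13.5, 14.4, 13.8, 11.3 and 13.1 FPKM. Ischemic gastrocnemius had 7.63, 20.6, 7.47, 7.04 and 10.5 FPKM. There 4 of the 5 ischemic libraries were below every sham library and library 2 was above every one, so the ranges overlapped. In FPKM all sham gastrocnemius libraries were above all sham soleus libraries. On the CPM scale these groups overlapped, with sham soleus up to 29.2 in library 4 and sham gastrocnemius from 26.3. The order by mean FPKM was sham gastrocnemius (13.2 ± 1.17), ischemic gastrocnemius (10.6 ± 5.71), then sham soleus and last ischemic soleus. Ischemic gastrocnemius overlapped both of its neighbours in that order.

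Apobec2 (ENSRNOG00000012303, chromosome 9, 14529218 to 14542731, plus strand) was the most abundant of the 4. Its promoter is shown because it is the only 1 of the 4 with an entry in the RefSeq promoter table used here, and because it holds E-boxes, the motif that myogenic factors bind. The window is chr9:20062311-20062610 of GRCr8, plus strand, from 250 bases before to 50 bases after the gene's start, 5′ to 3′, with the E-box letters CANNTG in capitals.
Apobec2: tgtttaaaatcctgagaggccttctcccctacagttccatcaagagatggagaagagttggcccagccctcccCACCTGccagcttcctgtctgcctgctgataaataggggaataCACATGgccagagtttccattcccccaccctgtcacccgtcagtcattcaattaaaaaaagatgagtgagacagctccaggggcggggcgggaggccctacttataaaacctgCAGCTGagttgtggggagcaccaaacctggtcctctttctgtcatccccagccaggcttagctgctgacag
The 3 E-boxes start at positions -177 (CACCTG), -134 (CACATG) and -21 (CAGCTG) from the start, and TATAAA starts at -32. On either strand, 72.1% of the 33469 promoters of this table hold CANNTG, 15.1% hold CAGCTG, 18.8% hold CACCTG and 14.2% hold TATAAA, and no MEF2 or CArG box letters were found in this window. A match describes the letters only.

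Apobec2 levels in FPKM separated the soleus groups and both muscles. Sham soleus libraries 1 to 5 had 798, 1064, 774, 1908 and 811 FPKM, and the ischemic ones 547, 436.5, 585, 440.0 and 464. All ischemic libraries lay below all sham libraries, and sham library 4 was far above the other 4. The mean went from 1071 ± 482 to 495 ± 67.5 FPKM (SD, n = 5 each), 2.17-fold lower, and from 862 ± 136 without library 4, 1.74-fold lower. Sham gastrocnemius had 235, 362.5, 209, 156 and 192 FPKM, and ischemic gastrocnemius 269, 142, 228, 171 and 274. Gastrocnemius ranges overlapped, and both lay below every soleus library. On the CPM scale sham gastrocnemius, with up to 478, overlapped ischemic soleus, with 439.9 and more. By mean FPKM the gene ranked 50th of 21926 entries in sham soleus and 83rd in ischemic soleus, and 190th and 203rd in sham and ischemic gastrocnemius. Sham soleus was 4.64-fold above sham gastrocnemius, or 3.74-fold without sham soleus library 4, and ischemic soleus was 2.28-fold above ischemic gastrocnemius.

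Ppp1r1a (ENSRNOG00000036827, chromosome 7, 145146481 to 145154131, minus strand) had nearly the same mean in both sham muscles only when sham soleus library 4 was included. Sham soleus libraries 1 to 5 had 55.8, 40.9, 38.7, 92.7 and 47.7 FPKM, and the ischemic ones 25.0, 39.1, 26.3, 22.8 and 20.9. Ischemic libraries were lower, and the FPKM ranges overlapped narrowly, since ischemic library 2 lay just above sham library 3. The mean went from 55.2 ± 22.0 to 26.8 ± 7.19 FPKM (SD, n = 5 each), 2.06-fold lower, and from 45.8 ± 7.70 without sham library 4, 1.71-fold lower. Sham gastrocnemius had 76.8, 50.3, 59.7, 42.3 and 47.7 FPKM, and ischemic gastrocnemius 25.2, 54.2, 39.3, 42.8 and 41.7. These overlapped, with ischemic library 1 the lowest and sham library 1 the highest. The sham means of 55.4 ± 13.5 in gastrocnemius and 55.2 ± 22.0 in soleus did not differ beyond their spread, ischemic gastrocnemius followed with 40.6 ± 10.4, and ischemic soleus was lowest. Without sham soleus library 4 the sham gastrocnemius mean was 1.21-fold above that of sham soleus. Every sham gastrocnemius library was above every ischemic soleus library.

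**Figure D1:**
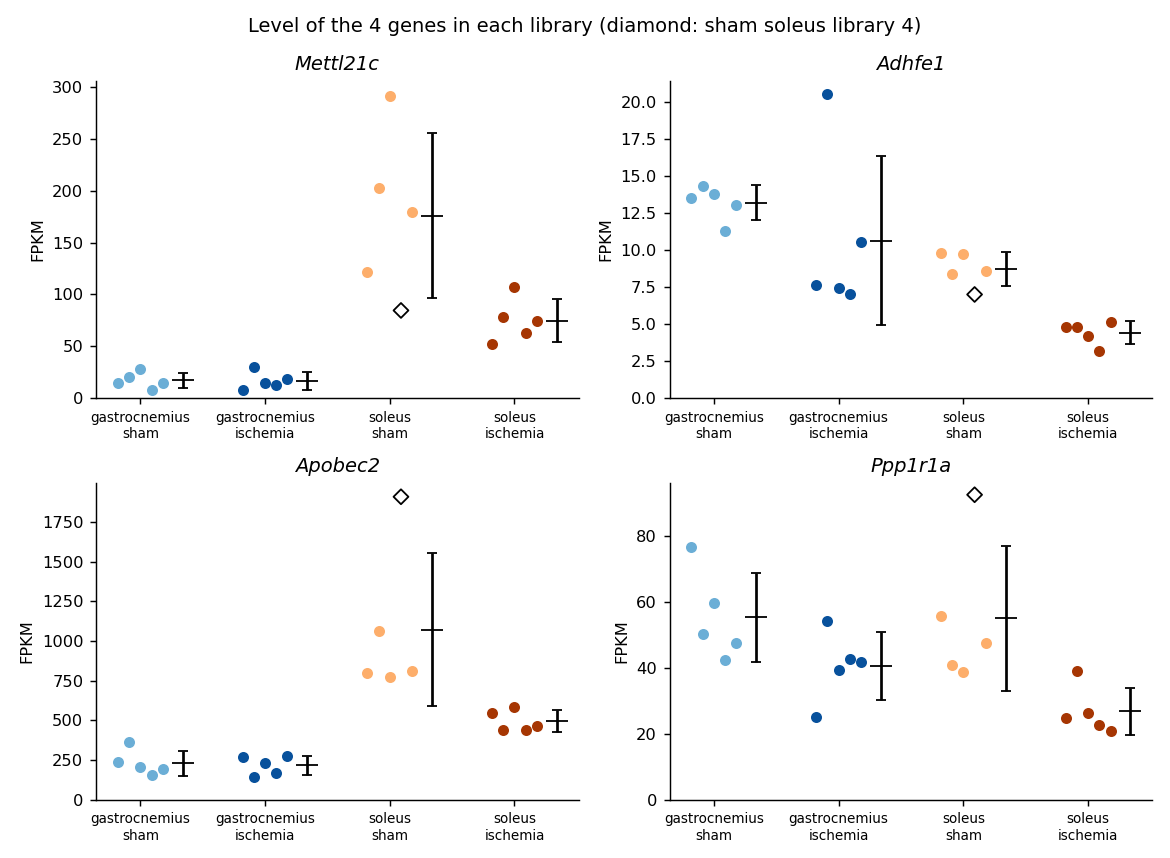
FPKM of Mettl21c, Adhfe1, Apobec2 and Ppp1r1a in each of the 20 libraries, 1 panel per gene, with the mean and SD of each group of 5 as bars; sham soleus library 4 is the open diamond. Ischemic soleus is lower than sham soleus in each panel, and sham library 4 is the highest sham library for Apobec2 (1908 FPKM) and Ppp1r1a (92.7 FPKM) and the lowest for Mettl21c (84.6 FPKM) and Adhfe1 (7.00 FPKM).

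In soleus the log2 difference of ischemia from sham was -1.57 ± 0.37 (SE) for Mettl21c, -1.40 ± 0.28 for Adhfe1, -1.80 ± 0.40 for Apobec2 and -1.70 ± 0.40 for Ppp1r1a. All 4 were among the 59 genes that edgeR called lower in that comparison, 0.505% of the tested genes, and this is how they were picked. Their median was -1.63, and over all tested genes the median was -0.04 and the lowest 5% were below -1.08. Without sham library 4 the log2 differences were -1.59 ± 0.38, -1.22 ± 0.27, -0.98 ± 0.20 and -0.95 ± 0.24 in the same order, so those of Apobec2 and Ppp1r1a were smaller, and 3.52% of the tested genes were called lower. Of the called falls ordered by the change in mean log2(FPKM + 1), Mettl21c was number 1 (-1.14), Apobec2 number 3 (-1.03), Ppp1r1a number 5 (-0.97) and Adhfe1 number 6 (-0.85). The next genes outside were Hspa1l, a heat shock protein gene, with -0.84 and Gstk1, a glutathione transferase gene, with -0.82.

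Scaling mattered for sham soleus library 4. On the CPM scale its Mettl21c level was 197, within the 129.7 to 309.7 of the other sham soleus libraries, and its Adhfe1 level was 29.2, above their 16.0 to 18.7. Its Apobec2 level of 4830 CPM and its Ppp1r1a level of 303 CPM stood far above the 891 to 1234 and 57.6 to 83.6 CPM of the others. On this scale ischemic soleus lay below sham soleus in all 5 against all 5 libraries for each of the 4 genes, a pattern that 6.62% of the tested genes had. Scaled by library totals alone, the median of all tested genes in soleus moved from -0.04 to 0.31 on the log2 scale, and the 4 genes were still lower by 0.96 or more on that scale.

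**Figure D2:**
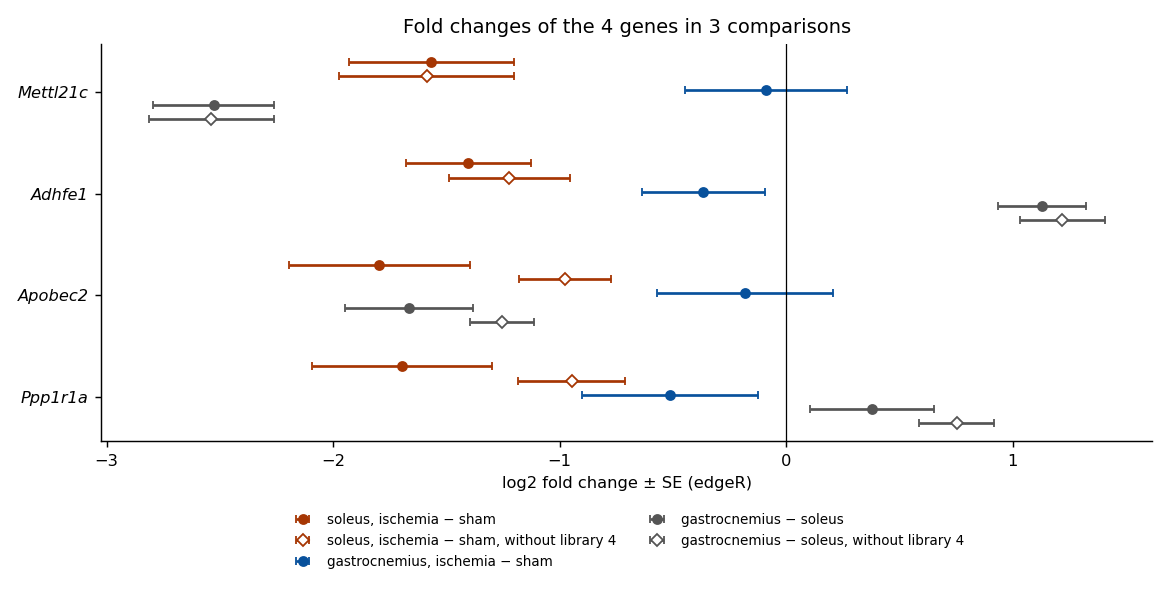
Log2 differences with their SE from the edgeR model for the 4 genes in the comparisons described, with all 20 libraries and without sham soleus library 4. The soleus differences of Apobec2 and Ppp1r1a move from -1.80 and -1.70 to -0.98 and -0.95 without that library. The ischemia differences in gastrocnemius lie closer to 0 than those in soleus. The genes were picked by their soleus differences, so this contrast of the muscles was not tested.

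The RNA levels of cell type markers also differed between the soleus groups. In bulk muscle, fewer cells of a type and less RNA per cell cannot be told apart. The 10 pan-myofibre markers found in the table, of 12 listed, summed to 94911 to 97549 CPM in sham soleus libraries other than library 4, to 268519 in library 4 and to 69129 to 79139 in ischemic soleus. All 10 were lower in ischemia, with a median log2 difference of -0.78, or -0.43 without library 4, and 0 of 10 were called with all libraries. The 9 fibroblast markers of 10 listed summed to 1471 to 2255 CPM in sham without library 4 and to 3605 to 8766 in ischemia. All 9 were higher, with a median of 1.25, and Pdgfra, the receptor of fibro-adipogenic progenitors, was called. Of slow fibre markers, all 11 listed were found and summed to 90453 to 99274 CPM in sham without library 4, to 170245 in it and to 54835 to 71116 in ischemia. The high slow fibre sum of library 4 depends on the scaling. In FPKM its level of the slow myosin gene Myh7 was 4321, below the 7418 to 9172 of the remaining sham soleus libraries. Macrophage markers, 10 of 10, summed to 65.9 to 161 CPM in sham without library 4, to 429 in it and to 179 to 322 in ischemia. Endothelial markers, 7 of 8, summed to 166 to 205 CPM in all 5 sham libraries and to 225 to 319 in ischemia. Adipocyte markers, 5 of 5, summed to 57.3 to 179 CPM in sham and 101 to 433 in ischemia, and Schwann cell markers, 6 of 6, to 38.8 to 72.9 and 71.7 to 143. Erythrocyte markers, 4 of 4, summed to 348 to 491 CPM in sham without library 4, to 2036 in it and to 217 to 830 in ischemia. Fast fibre markers, 10 of 11, summed to 3110 to 7711 CPM in sham and 2186 to 11496 in ischemia. Cldn5, an endothelial tight junction gene, was at 0 in all ischemic libraries of both muscles and in at least 1 library of each sham group. No other marker was at 0 throughout a soleus group. The part of these shifts in the 4 genes' levels was not tested.

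Relative to the summed pan-myofibre markers the 4 genes, picked for their fall in soleus, were lower in ischemic soleus by mean. Mettl21c was at 2.21 ± 0.799 CPM per 1000 CPM of these markers in the 4 sham libraries other than library 4 and at 0.976 ± 0.272 in the 5 ischemic ones (SD). Adhfe1 went from 0.181 ± 0.0142 to 0.103 ± 0.0199 and Apobec2 from 10.4 ± 1.56 to 6.96 ± 0.786. For Adhfe1 and Apobec2 the sham libraries other than library 4 lay above all ischemic libraries. The share of all tested genes with such separation on this scale was not counted. Mettl21c overlapped, with sham library 1 at 1.33 and ischemic library 3 at 1.37. Ppp1r1a went from 0.714 ± 0.117 to 0.492 ± 0.149 and overlapped, with ischemic library 2 at 0.752. Sham library 4 was at 0.735 for Mettl21c and 0.109 for Adhfe1, both within the ischemic range, and at 18.0 for Apobec2 and 1.13 for Ppp1r1a, both above all other soleus libraries.

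**Figure D3:**
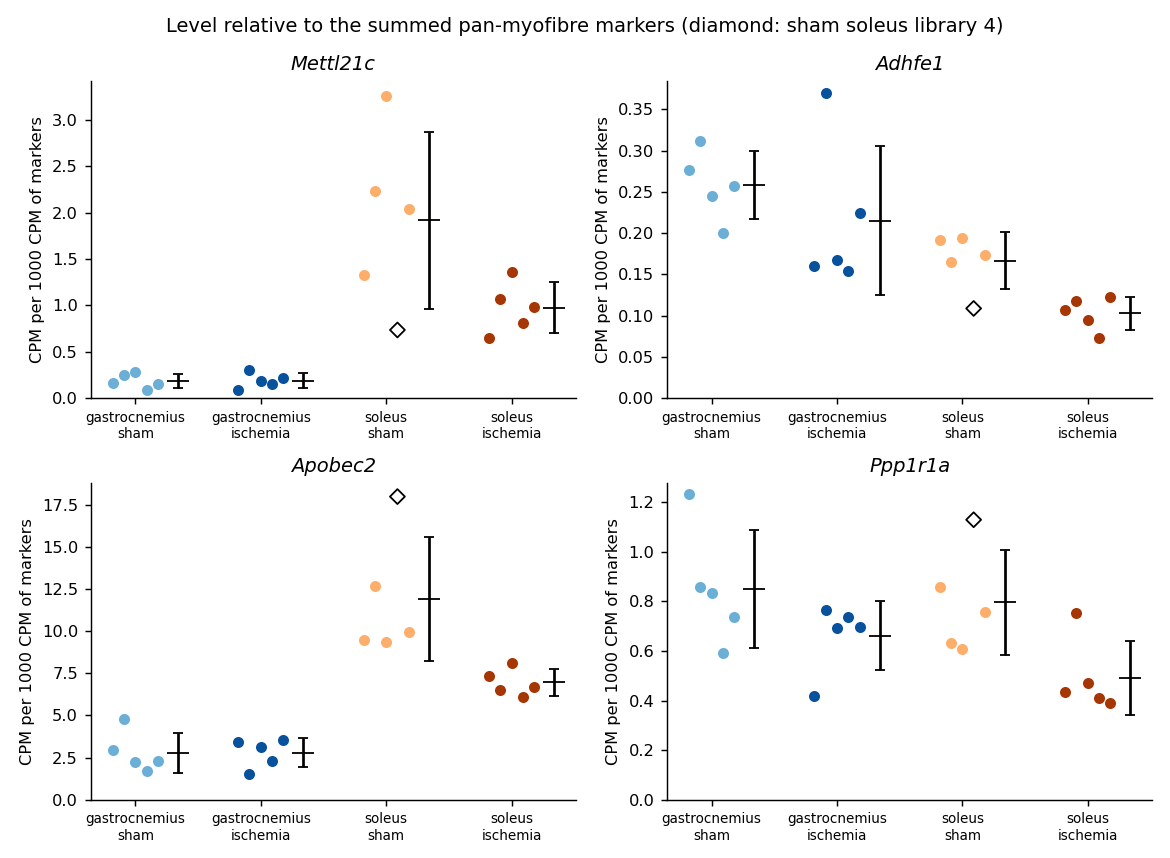
CPM of each gene per 1000 CPM of summed pan-myofibre markers in every library, with the mean and SD of each group of 5; sham soleus library 4 is the open diamond. Ischemic soleus lies below the other sham soleus libraries for Adhfe1 and Apobec2, and library 4 falls within the ischemic range for Mettl21c and Adhfe1.

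In gastrocnemius, which did not take part in the choice, none of the 4 passed the edgeR test after ischemia. The log2 difference was -0.09 ± 0.36 (SE, adjusted p = 0.988) for Mettl21c, -0.37 ± 0.27 (0.897) for Adhfe1, -0.18 ± 0.39 (0.986) for Apobec2 and -0.51 ± 0.39 (0.897) for Ppp1r1a. With limma voom and library quality weights Adhfe1 was called, with -0.69 (limma adjusted p = 0.0240). That method called 571 of the 11693 tested genes here. The sham and ischemic CPM ranges overlapped for all 4, and 0.564% of the tested genes had all 5 ischemic libraries below all 5 sham libraries. Over all genes edgeR called 0.0% here, DESeq2 called 11 genes, and 727 had an unadjusted edgeR p under 0.05. The Adhfe1 difference was -0.81 (edgeR adjusted p = 0.146) with ischemic gastrocnemius library 2 left out. Leaving out sham soleus library 4 bears on this comparison only through the shared spread: the Ppp1r1a difference was then -0.51 ± 0.22 (edgeR adjusted p = 0.276), and for the others the adjusted p was 0.460 to 0.914. The direction for Mettl21c turned to 0.20 without sham gastrocnemius library 3 and to 0.12 without ischemic library 1, and that of Apobec2 to 0.01 without sham library 2. The difference of the responses, gastrocnemius minus soleus, holds the contrast that picked the genes and has no test: it was 1.48 ± 0.51 for Mettl21c, 1.04 ± 0.39 for Adhfe1, 1.61 ± 0.55 for Apobec2 and 1.18 ± 0.55 for Ppp1r1a. Without sham soleus library 4 it was 1.50 ± 0.53, 0.86 ± 0.37, 0.79 ± 0.28 and 0.43 ± 0.33.

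Between the muscles, 3 of the 4 genes differed. The soleus libraries compared here also picked the genes, and sham soleus library 4 weighs on both. The p-values of the 4 genes are thus not fully independent of the choice. Averaged over sham and ischemia, Mettl21c was 5.76-fold lower in gastrocnemius than in soleus, a log2 difference of -2.53 ± 0.27 (SE, edgeR adjusted p = 1.08e-06), and Apobec2 was 3.17-fold lower, -1.66 ± 0.28 (edgeR adjusted p = 0.000163). Adhfe1 was 2.19-fold higher in gastrocnemius, 1.13 ± 0.19 (edgeR adjusted p = 0.000195). The 4 genes, all lower in ischemic soleus by choice, thus lay on different sides of the comparison of muscles. These 3 of 4 calls stand against 34.1% of all tested genes, 18.0% lower and 16.1% higher in gastrocnemius. For Ppp1r1a the difference was 0.38 ± 0.27 (edgeR adjusted p = 0.298), and without sham soleus library 4 it was 0.75 ± 0.17 (edgeR adjusted p = 0.00105), higher in gastrocnemius. Without that library the other 3 were -2.54 ± 0.28, -1.25 ± 0.14 and 1.22 ± 0.19 in the order above. EdgeR then called 49.7% of all tested genes between the muscles, so the calls without library 4 stand against that share.

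Levels of the 4 genes were also compared across the 10 gastrocnemius libraries, with the share of Myh7, the slow myosin heavy chain gene, in the sum of Myh7 and Myh4, a fast one, in FPKM. Myh4 and Myh8 have overlapping gene models on 1 strand, which leaves the Myh4 level uncertain. This slow share was 8.74%, 40.5%, 0.630%, 1.09% and 8.86% in sham libraries 1 to 5 and 39.5%, 0.536%, 30.4%, 16.2% and 33.1% in ischemic libraries 1 to 5. Gastrocnemius libraries of either group thus differed widely in it. In the 10 relations tested, p-values come from 100000 permutations, two-sided, with Benjamini-Hochberg adjustment over the 10, and 0 passed by Pearson's r and 2 by Spearman's rho.

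Adhfe1 and Ppp1r1a had rho = 0.903 (permutation adjusted p = 0.00930) and r = 0.742 (permutation adjusted p = 0.0592). Mettl21c and Adhfe1 had rho = 0.855 (permutation adjusted p = 0.0133) and r = 0.723 (permutation adjusted p = 0.0592). Without the 2 libraries farthest from the median of the first gene, r was 0.552 (exact p = 0.161) and 0.409 (exact p = 0.333). With any 1 library left out, r was 0.662 to 0.791 for Adhfe1 with Ppp1r1a and 0.596 to 0.813 for Mettl21c with Adhfe1. On deviations from the 2 group means r was 0.643 and 0.775. Mettl21c and Ppp1r1a had r = 0.661 (permutation adjusted p = 0.0733) and rho = 0.685 (permutation adjusted p = 0.0862). For Apobec2 with each of the other 3, r was between -0.131 and 0.018 and rho between -0.079 and 0.152 (permutation adjusted p of r 0.903 or more). Without the 2 farthest libraries r was 0.599 (exact p = 0.115) for Mettl21c with Apobec2, -0.074 (exact p = 0.869) for Adhfe1 with Apobec2 and -0.025 (exact p = 0.954) for Apobec2 with Ppp1r1a. With the slow share, Apobec2 had r = 0.722 (permutation adjusted p = 0.0592) and rho = 0.685 (permutation adjusted p = 0.0862), and r = 0.904 on deviations from the group means. Ppp1r1a and Adhfe1 had r = -0.657 (permutation adjusted p = 0.0731) and -0.592 (permutation adjusted p = 0.127), with rho = -0.612 (permutation adjusted p = 0.134) and -0.588 (permutation adjusted p = 0.135), and Mettl21c had r = -0.344 and rho = -0.345 (permutation adjusted p = 0.466 and 0.474). Without the 2 libraries farthest from the median slow share, r was 0.567 (exact p = 0.150) for Apobec2, -0.644 (exact p = 0.0850) for Ppp1r1a, -0.738 (exact p = 0.0404) for Adhfe1 and -0.247 (exact p = 0.566) for Mettl21c.

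**Figure D4:**
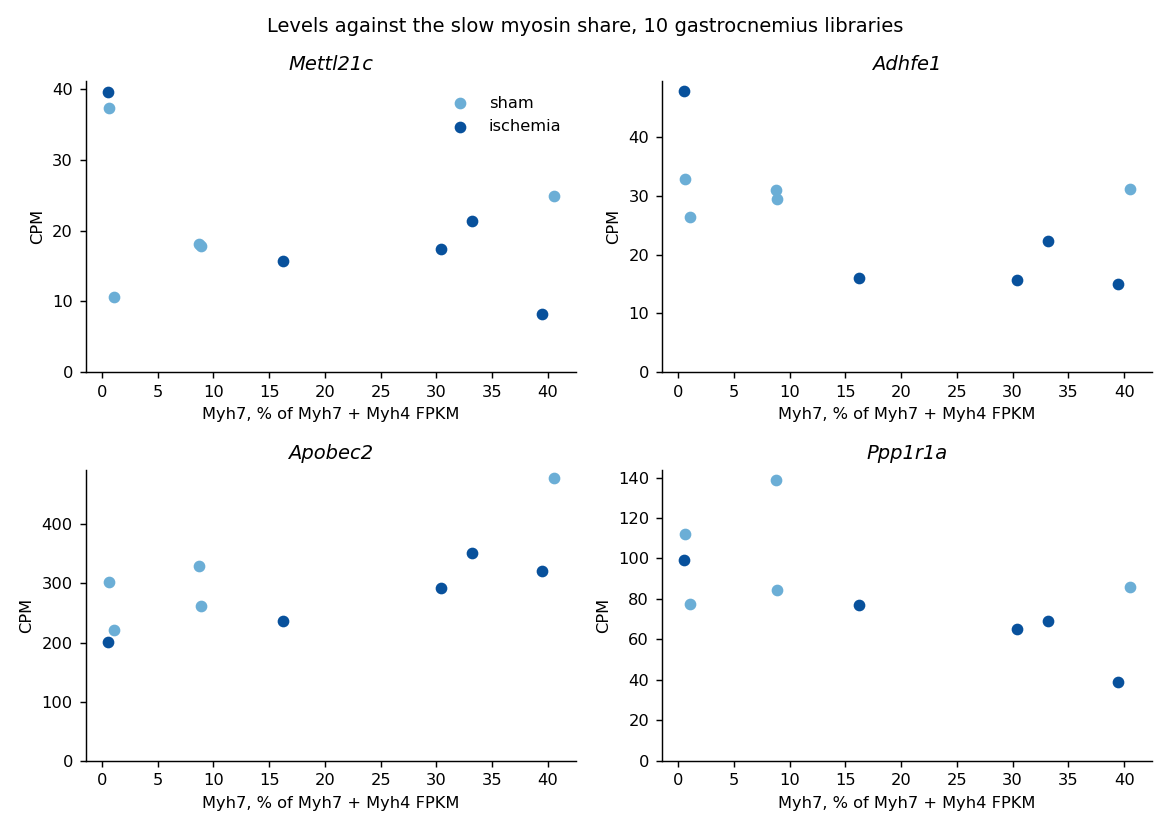
CPM of each gene against the Myh7 share of Myh7 + Myh4 FPKM in percent, in the 10 gastrocnemius libraries, 1 point per library, sham in light and ischemia in dark blue. The Apobec2 level has r = 0.722 with the slow share (permutation adjusted p = 0.0592, not past the threshold), and ischemic library 2, with a slow share of 0.536%, has the highest Adhfe1 level (47.9 CPM).

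Other genes of the same pathways were taken from 10 lists with 96 genes beside the 4, of which 83 were in the table and 61 were tested. In soleus edgeR called 0 of these 61 after ischemia, against 1.03% of all tested genes, with a smallest adjusted p of 0.0593. At an unadjusted p under 0.05 there were 19 of the 61, against 3256 of all 11693 tested genes. DESeq2 called 9 of the 61, 1 higher and 8 lower, against 1398 of all 11693. Their median log2 difference was -0.17, against -0.04 over all tested genes. Without sham soleus library 4, edgeR called 4 of the 61, all lower, or 6.56%, against 6.15% of all tested genes. These were the chaperone gene Hspa8 (-0.38 ± 0.10, SE), the muscle elongation factor gene Eef1a2 (-0.46 ± 0.12), the phosphatase 1 catalytic gene Ppp1cb (-0.43 ± 0.11) and the protein kinase A catalytic gene Prkaca (-0.26 ± 0.07). In gastrocnemius 0 of 61 were called after ischemia by edgeR, with 4 at an unadjusted p under 0.05, and 0 by DESeq2.

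Between the muscles 35 of the 61 pathway genes were called, 21 higher and 14 lower in gastrocnemius. That is 57.4%, beside 34.1% of all tested genes, and the difference between these shares was not tested. Scaled by library totals alone, 15 were higher and 21 lower, and over all genes 965 were higher and 3645 lower in place of 1880 and 2103. Of the 35 genes, 0 changed sign under that scaling and 6 lost their call, all of them among the higher ones: Atpsckmt, Cdadc1, Glud1, Mettl18, Ppp1cb and Ppp1cc. The median of all genes was then -0.29 in place of -0.08 on the log2 scale, so the values below are to be read against -0.08.

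Around Mettl21c, 10 relatives were tested and 4 were called. Atpsckmt and Mettl18 were higher in gastrocnemius, and Eef1akmt1, a methyltransferase of elongation factor 1A, was lower with -1.51, like Mettl9 with -0.50. Among 8 genes for substrates of the group, Eef1a2 (0.44 ± 0.14) was higher, and the elongation factor genes Eef1a1 (-1.66 ± 0.21) and Eef2 (-0.45 ± 0.15) and the electron transfer flavoprotein gene Etfb (-0.88 ± 0.24) were lower. The paralogous elongation factor genes Eef1a1 and Eef1a2 thus went in opposite directions between the muscles. In soleus after ischemia the median log2 difference was -0.09 for the relatives and -0.35 for the substrates, or -0.10 and -0.36 without sham soleus library 4, and none was called with all libraries. Between the muscles Eef2 moved to -0.29 ± 0.09 without that library and was still called.

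Around Adhfe1, 9 other genes of 4-hydroxybutyrate and 2-hydroxyglutarate metabolism were tested. In gastrocnemius the succinate semialdehyde dehydrogenase gene Aldh5a1 (0.77 ± 0.10), the D-2-hydroxyglutarate dehydrogenase gene D2hgdh (0.68 ± 0.15) and the glutamate dehydrogenase gene Glud1 (0.31 ± 0.08) were higher, as Adhfe1 itself was. The aldehyde reductase gene Akr7a2 (-1.44 ± 0.42) and the mitochondrial isocitrate dehydrogenase gene Idh2 (-0.99 ± 0.19) were lower. Without sham soleus library 4 the Akr7a2 difference was -0.59 ± 0.14, still called. Of the alcohol dehydrogenase family only Adh5 was tested, and it was lower with -0.28 ± 0.10 (edgeR adjusted p = 0.0423). In soleus after ischemia the smallest p-values were those of Akr7a2 with -1.87 ± 0.60 and Idh2 with -0.73 ± 0.27, which were not called (edgeR adjusted p = 0.0728 and 0.101). Akr7a2 had up to 367 CPM in sham soleus, and without sham soleus library 4 these differences were -0.17 ± 0.20 and -0.57 ± 0.27 (edgeR adjusted p = 0.610 and 0.179).

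Around Apobec2, 5 genes of other deaminases were tested. The cytidine deaminase gene Cda was lower in gastrocnemius with -3.27 ± 0.53, the same direction as Apobec2, and Cdadc1 was higher with 0.32 ± 0.11. In soleus after ischemia the smallest p-values were those of the RNA adenosine deaminase genes Adarb1 with 0.74 ± 0.23 and Adar with 0.57 ± 0.24, which were not called (edgeR adjusted p = 0.0684 and 0.125) and had the opposite sign to Apobec2. Without sham soleus library 4 they were 0.56 ± 0.17 and 0.42 ± 0.20 (edgeR adjusted p = 0.0539 and 0.189).

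Around Ppp1r1a, genes of phosphatase 1 and its partners were tested in 5 lists. Of 3 catalytic subunits Ppp1cb (0.72 ± 0.17) and Ppp1cc (0.34 ± 0.07) were higher in gastrocnemius. Of 5 other inhibitors inhibitor-2 (Ppp1r2, 0.88 ± 0.14) was higher and Ppp1r8 (-0.40 ± 0.08) and Ppp1r27 (-0.98 ± 0.27, or -0.58 ± 0.14 without sham soleus library 4, called in both) were lower. Of 6 targeting subunits the glycogen-targeting Ppp1r3a (1.32 ± 0.17) and Ppp1r3c (1.07 ± 0.26) were higher and the myosin-targeting Ppp1r12c (-0.47 ± 0.17) was lower. Among 9 subunits of the kinase and phosphatase that act on inhibitor-1, the calcineurin genes Ppp3ca (1.45 ± 0.14), Ppp3cb (1.46 ± 0.26), Ppp3cc (0.69 ± 0.10) and Ppp3r1 (1.65 ± 0.20) were higher, and the protein kinase A genes Prkaca (-0.60 ± 0.15) and Prkar1a (-0.83 ± 0.12) were lower. Of 5 genes tested in the list of phosphorylase kinase, phosphorylase and glycogen synthase, the phosphorylase kinase subunits Phka1 (3.07 ± 0.28), Phkb (2.53 ± 0.33) and Phkg1 (3.04 ± 0.26) and muscle phosphorylase Pygm (2.73 ± 0.22) were higher in gastrocnemius. In soleus after ischemia none of them was called with all libraries, and the smallest p-values of the kinase, inhibitor and catalytic lists were those of Prkaca with -0.66 ± 0.21, Ppp1r27 with -1.18 ± 0.39 and Ppp1ca with -0.85 ± 0.33 (edgeR adjusted p = 0.0747, 0.0766 and 0.112). Without sham soleus library 4 these were -0.26 ± 0.07, -0.37 ± 0.20 and -0.09 ± 0.09, of which only Prkaca was called, and the median of the 5 other inhibitors was -0.06 in place of -0.52.

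The 4 genes were also compared across all 20 libraries, which include the soleus libraries that picked them. As a description over libraries that share muscle and treatment, Pearson's r of log2(CPM + 1) was 0.795 between Mettl21c and Apobec2. It was 0.805 between Adhfe1 and Ppp1r1a, and these values were 0.864 and 0.885 without sham soleus library 4. For the other 4 pairs it was between -0.244 and 0.293, or between -0.387 and -0.234 without that library. Within the 10 gastrocnemius libraries, which did not pick the genes, r was 0.018 for Mettl21c with Apobec2 and 0.742 for Adhfe1 with Ppp1r1a. There it was 0.723 for Mettl21c with Adhfe1 and 0.661 for Mettl21c with Ppp1r1a, so the grouping over 20 libraries differed from that within gastrocnemius. The 3 genes most like Mettl21c over the 20 libraries were Camk2b (r = 0.915), Mtfr1l (0.910) and Usp20 (0.907). Those most like Adhfe1 were Atg9a (0.956), Tmem38a (0.946) and Pmpca (0.940). Apobec2 was closest to Fkbp3 (0.978), Pcbp4 (0.973) and St6galnac4 (0.964), and Ppp1r1a to Atp6v1e1 (0.938), Lsm12 (0.932) and Cystm1 (0.932). Over the 19 libraries without sham soleus library 4, Mtfr1l (0.945), Atg9a (0.954) and Fkbp3 (0.954) were again among the 3 closest to Mettl21c, Adhfe1 and Apobec2. None of the 3 closest to Ppp1r1a was shared, and they were then Immp1l (0.919), Slc4a1ap (0.914) and Hjv (0.911).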

How the data were processed

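RNA of 20 rat muscle libraries was measured by stranded poly(A) sequencing, paired-end on an Illumina NovaSeq per the labels' protocols. The authors deposited 1 table with whole-number counts and FPKM per gene and library. The deposited FPKM are scaled by length and depth, per the file headers. For the aligner, the counter and the genome build: not given in the sources used here. Gene positions are those of the table. Small counts pile up at multiples of 4 (28.3% to 36.5% of counts from 1 to 40), so counts are not read as numbers of fragments, and precision comes from the spread between libraries.

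Genes reaching 1 FPKM in 5 or more libraries were tested with edgeR 4.0.16 (R 4.3.3; TMM factors, quasi-likelihood, robust), 1 term per group, two-sided, with Benjamini-Hochberg adjustment over 11693 genes and a threshold of 0.05. SE is the log2 difference divided by the square root of F. The procedure was tested on simulated data. DESeq2 1.42.0, limma 3.58.1 with pseudocounts of 1 and 0.1, voom weights, other scalings, filters of 5 FPKM and none, and left-out libraries were alternatives. Correlations used scipy 1.17.1.

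The 4 genes, the gene lists and the rules were chosen with earlier results of these data known. Named genes are the 4, the called genes of each list or, where none was called, those with the smallest p in soleus, and the 3 nearest patterns; 1 called gene of a list is counted and not reported here by name. Promoter sequence comes from RefSeq, build GRCr8. Of the 4 genes, 1 matched.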

Additional observations from a re-analysis of the deposited data

Results flagged for a closer look

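Of 16 groups of 5 libraries examined, 4 genes by 4 groups on the CPM scale, 4 had 1 library standing apart from the other 4 by Dixon's criterion, and chance alone marks about 1 in 20 groups. Sham soleus library 4 was the highest of its group for Adhfe1 with 29.2 CPM, for Apobec2 with 4830 CPM and for Ppp1r1a with 303 CPM. These flags share 1 library and its scaling, so they are not independent of each other. In FPKM its Adhfe1 level of 7.00 was the lowest of the group. Ischemic gastrocnemius library 2 was the highest of its group for Adhfe1 with 47.9 CPM.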

How the results depend on the processing

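Mettl21c, Adhfe1 and Apobec2 passed between the muscles under all 29 alternatives. In soleus all 4 genes were lower under all 30, but this direction picked them in the same libraries, so it is a description only. Ranges in soleus were -1.74 to -1.14 for Mettl21c, -1.47 to -0.85 for Adhfe1, -1.96 to -0.95 for Apobec2 and -1.87 to -0.95 for Ppp1r1a. Where 1 or 2 genes in all were called in soleus, as given below, at most that many of the 4 can have been called. Counts of genes moved further, and the cause was not tested. In soleus 121 genes (62 higher, 59 lower) became 1398 with DESeq2, 398 (387 higher, 11 lower) with library totals, 852 and 1647 with limma on log2(FPKM + 0.1) and log2(FPKM + 1), 3057 with voom weights, 2 with no filter and 125 (103 higher, 22 lower) with only the 2 soleus groups. Leaving out 1 library gave 1 to 737 there: 1 without sham soleus 1 or 2, ischemic soleus 4 or ischemic gastrocnemius 3, 2 without sham or ischemic gastrocnemius 5, 3, 4, 21, 23 and 27 without ischemic soleus 2, ischemic soleus 1, ischemic gastrocnemius 4, ischemic soleus 5 and ischemic soleus 3, 311, 359 and 356 without sham gastrocnemius 1, ischemic gastrocnemius 1 and ischemic gastrocnemius 2, and finally 548 (sham soleus 5 left out), 719 (sham soleus 4) and 737 (sham soleus 3). In gastrocnemius 0 became 11 with DESeq2 and 571 with voom weights, and 0 to 6 without 1 library (6 without sham soleus 4, 1 without sham gastrocnemius 2). Between the muscles 3983 became 6894 with voom weights, and 3342 to 5813 without 1 library. For the difference of the responses 0 became 2 with DESeq2, and 1 with library totals, upper-quartile factors, voom weights and limma with either pseudocount, and 0 to 1 without 1 library. With voom weights Adhfe1 passed in gastrocnemius (-0.69, limma adjusted p = 0.0240) and Ppp1r1a between the muscles (0.69, limma adjusted p = 0.000128), and Apobec2 in gastrocnemius turned to 0.0013. Without 1 library the gastrocnemius difference was -0.47 to 0.20 for Mettl21c and -0.29 to 0.012 for Apobec2. Of the 10 relations 0 passed by r, against 1 on log2(FPKM + 1) (slow share with Apobec2, r = 0.826) and 0 to 3 without 1 library. The r of Mettl21c with Apobec2 was -0.023 on log2(FPKM + 1) and -0.166 to 0.402 without 1 library, that of Adhfe1 with Apobec2 -0.377 to 0.260 and that of Apobec2 with Ppp1r1a -0.199 to 0.054. Libraries of different groups share a replicate number, and whether that number stands for a rat is not given. Deviations of same-numbered libraries correlated above 0.1 in 6 of 10 pairs of both muscles and in 2 of 10 pairs of sham and ischemia. With that number as a replicate block, 0 genes were called in gastrocnemius, 123 in soleus (86 higher, 37 lower), 0 for the difference of the responses and 3651 between the muscles, and no call of the 4 genes changed.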
